A study of Saccharomyces cerevisiae with 4 samples.

Results

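The culture described here is budding yeast (Saccharomyces cerevisiae) that overexpressed POG1 and was harvested 60 min after lithium chloride was added at 200 mM, set against the same kind of culture at 0 min, before the salt. Its members are 2 of the 4 arrays of the study, those titled POG1 at 60 min and POG1 at 0 min. The other arrays are the same times of a culture that overexpressed KIN28. Each combination of overexpressed gene and time had 1 array, so no value below has a replicate, and no test was made. The labels give transformants in exponential growth at 25 °C in synthetic medium with 2% glucose, lacking leucine, uracil or both. They do not give the strain, the promoter or plasmid behind the overexpression, the RSP5 genotype or which dropout medium each culture had. No culture with an empty vector and no untreated culture at 60 min was analysed here. Every change from 0 to 60 min therefore combines lithium with an hour in culture in cells that overexpress POG1 throughout.

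POG1 encodes a nuclear protein of budding yeast that promotes re-entry into the cell cycle after arrest by mating pheromone. KIN28 encodes the kinase of the general transcription factor TFIIH, and RSP5, named in the study's title, encodes an essential ubiquitin ligase of the HECT family. Lithium enters yeast through sodium and potassium routes, inhibits certain magnesium-dependent phosphatases and phosphoglucomutase, and at high concentration also lowers the water activity around the cell. Yeast responds to such salts with export pumps, with glycerol made as an osmolyte, and with the general stress programme that accompanies slower growth.

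The arrays hold 9275 probe sets besides the controls. Each deposited intensity was divided by the median of its array, which gives a scaled signal of 1 to a probe set at the median. Signals below the 20th percentile of an array were raised to that level, which was 0.218 at 60 min and 0.211 at 0 min. At least 1 POG1 array lay above this floor for 8039 probe sets, which are called measured, and 6798 lay above it on both arrays. The text writes rose or fell where the scaled signals differed at least 2-fold. For a difference with 1 array at or under the floor, the log2 change is a lower bound of its size at that floor. The floor lies under the level of the negative controls given below, and the bound can be smaller at that level. Of the measured probe sets 1106 rose (13.8%) and 1189 fell (14.8%), with a median log2 change of -0.01. The unscaled medians were 48.1 at 60 min and 60.6 at 0 min. With no scaling, 663 probe sets (25.4% of those past 2-fold) rose and 1946 (74.6%) fell, against 48.2% and 51.8% with it, and the median log2 change of all measured probe sets was -0.34. Every change below is therefore relative to the median of its array. The 74 genes read by 2 probe sets gave a spread of 0.42 on the log2 scale for 1 probe set, and 3 of these genes had readings more than 2-fold apart. This covers differences between probe sets and leaves out differences between cultures. The negative controls, 13 antisense and mouse probe sets, had a 95th percentile of 0.531 at 60 min and 0.567 at 0 min, and a signal under that level is called dim below. The text names single probe sets by their gene, and levels of different probe sets are not compared.

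**Figure D1:**
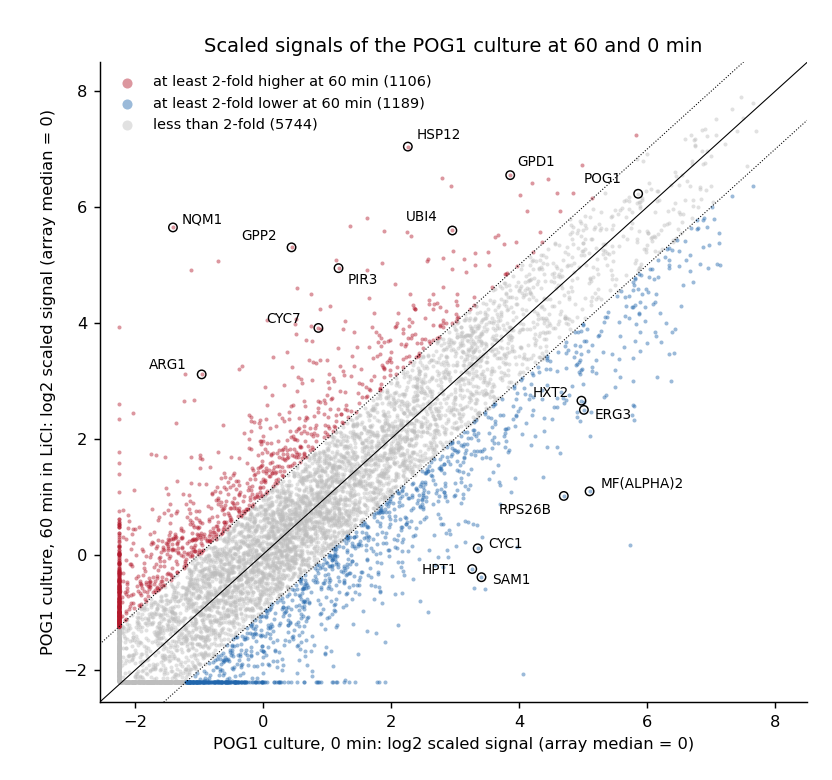
Each point is 1 of 8039 measured probe sets, with the log2 scaled signal of the POG1 culture at 60 min on the vertical axis and at 0 min on the horizontal axis. The solid line marks equal signals and the dotted lines a 2-fold difference, and HSP12, GPP2 and NQM1 lie far above the line while MF(ALPHA)2, RPS26B and CYC1 lie far below it.

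The overexpressed gene matched the label at both times. POG1 (YIL122W) had a scaled signal of 75.03 at 60 min and 58.1 at 0 min where it was overexpressed. In the KIN28 culture the same probe set had 0.195 at 60 min, under the floor, and 0.219 at 0 min. Its log2 change in the POG1 culture was 0.37, less than the spread of 1 probe set. The native KIN28 gene (YDL108W) had 0.872 at 60 min and 1.16 at 0 min in the POG1 culture. RSP5 (YER125W) had 5.32 at 60 min and 3.65 at 0 min, a log2 change of 0.54 that did not reach 2-fold.

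Of 22 measured probe sets in the list of start genes and G1 cyclins, 3 rose (13.6%, near the share of all probe sets) and 5 fell, with a median log2 change of -0.21. Of the 3, CLB6 (0.477 against 0.209) and PLM2 (0.440 against 0.067) were dim at both times. WHI5, which encodes the repressor of the G1 transcription factor SBF, had 1.65 at 60 min against 0.344 at 0 min, a log2 change of 2.26 with a dim signal at 0 min. The cyclin gene CLN2 fell, with 0.985 at 60 min against 2.24 at 0 min, and CLN1 did not reach 2-fold (log2 -0.46). FAR1, the pheromone-activated inhibitor of the G1 cyclin kinase, had 0.572 at 60 min against 1.56 at 0 min, a log2 change of -1.45. SWI6, the subunit shared by the G1 transcription factors SBF and MBF, fell by 1.04 on the log2 scale to a dim 0.516. Among mitotic regulators 1 of 24 rose and 2 fell, and CLB1, CLB2 and CLB3, the B-type cyclin genes of mitosis, had log2 changes of -0.16, 0.76 and -0.03.

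Histone genes, most of which share probe sets between their copies, fell. Of 11 measured probe sets 7 fell and 0 rose, with a median log2 change of -1.57, against -0.81 in the KIN28 culture. HTB2, a gene of histone H2B, had 2.51 at 60 min against 15.4 at 0 min, and HTB1 had 15.0 against 33.3. The 2 probe sets shared by HTA1 and HTA2, the H2A genes, had log2 changes of -1.72 and -1.81. The probe set of HHF1 and HHF2, the H4 genes, fell by 1.97. The 3 probe sets of HHT1 and HHT2, the H3 genes, disagreed in size, at -0.63, -0.85 and -2.01. The variants HTZ1 (-0.34) and CSE4 (-0.32), which are deposited in place of the canonical histones, did not reach 2-fold.

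Markers of the alpha mating type fell together. The defining genes of alpha cells had signal at 0 min, among them MF(ALPHA)1 and MF(ALPHA)2, which encode the alpha pheromone, at 54.6 and 34.3. At 60 min these had 5.31 and 2.13, log2 changes of -3.36 and -4.01. STE3, the receptor for a-factor, had 0.765 at 60 min against 3.23 at 0 min, and the agglutinin gene SAG1 had 2.11 against 7.07. MATALPHA1, read together with its silent copy, fell on both probe sets, by 1.33 and 1.70, while the 2 probe sets of MATALPHA2 and its silent copies did not reach 2-fold (0.54 and 0.10). In a bulk culture fewer cells of a type and less RNA per cell cannot be told apart. The markers of a cells were at or near the floor, with AGA2 and ASG7 below it at both times and STE2 at 0.298 against 0.347. A single member, STE6, was past 2-fold (0.506 against 0.080, log2 1.26 with the 0 min signal at the floor). It was dim at both times. Of the haploid genes, STE4 fell (4.36 against 8.83), and GPA1, FUS3, HO and RME1 did not reach 2-fold. None of the meiosis and sporulation genes rose, and 2 of 19 fell, NDT80 and SSP1, both dim at 60 min.

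The salt-handling genes changed little. ENA1 and ENA2, which encode the plasma membrane ATPases that pump sodium and lithium out of the cell, lie in a tandem array with ENA5 and share probe sets. Their joint probe set had 2.97 at 60 min against 2.04 at 0 min, a log2 change of 0.54, and a further set that also detects ENA5 had 3.16 against 3.03. A probe set for ENA5 alone had 0.315 at 60 min, which is dim, against 1.14 at 0 min, a log2 change of -1.86. The antiporter genes NHX1, of the endosome, and NHA1, of the plasma membrane, had log2 changes of 0.71 and 0.12. Potassium uptake and proton pump genes had 2 of 19 measured probe sets higher (10.5%, against 13.8% of all probe sets) and 1 lower. PTK2, a kinase gene that activates the plasma membrane proton pump, had 8.98 at 60 min against 2.39 at 0 min. The drug transporter gene QDR2 had 1.45 against 6.89, and the potassium transporter genes TRK1 and TRK2 had log2 changes of -0.06 and -0.13. Of the calcineurin and calcium list 2 of 17 rose (11.8%, against 13.8% of all probe sets). They were PMC1, the calcium pump of the vacuole (4.64 against 2.02), and 1 of the probe sets of the vacuolar channel gene YVC1. For YVC1 the log2 change was 2.52 with the 0 min signal raised to the floor. It was at least 2.13-fold with that signal at the negative-control level.

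The enzymes that lithium inhibits directly split. PGM2, the major phosphoglucomutase, had 30.2 at 60 min against 3.09 at 0 min, a log2 change of 3.29, whereas its copy PGM1 had 3.07 against 7.43, a log2 change of -1.27. The inositol monophosphatase genes INM1 and INM2 had log2 changes of 0.96 and 0.22, and MET22 (also HAL2), the phosphatase that removes a by-product of sulfate assimilation, had -0.36. Of the yeast relatives of glycogen synthase kinase 3, RIM11 and MCK1 had 0.67 and -0.49, and YGK3 fell by 1.16 to a dim 0.364.

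Genes of glycerol metabolism rose. GPD1, the NAD-dependent glycerol 3-phosphate dehydrogenase induced by osmotic stress, had 93.8 at 60 min against 14.5 at 0 min, and GPP2, the phosphatase that completes glycerol synthesis, had 39.5 against 1.36, log2 changes of 2.69 and 4.86. The copies used in anaerobic growth, GPD2 (0.73) and GPP1 (0.54), did not reach 2-fold. On the side of glycerol breakdown, GCY1 had 19.0 against 1.85 and DAK1 37.9 against 7.85, while GUT1 had a log2 change of -0.44. The importer gene STL1 had 0.721 against a dim 0.229, which is at least 1.27-fold with the dim signal at the negative-control level, and FPS1, the glycerol exit channel, had 0.20. In all 6 of 12 measured probe sets of the list rose, STL1 among them, and 0 fell.

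Trehalose genes rose at both ends of the pathway. TPS1, TPS2, TPS3 and TSL1 encode the synthase complex, and their log2 changes were 1.89, 3.31, 1.31 and 2.5. The trehalase genes ATH1 (2.10 against 0.627) and NTH1 (12.8 against 3.87) also rose, and NTH2 did not reach 2-fold (0.17). UGP1, which makes the UDP-glucose used for both trehalose and glycogen, had 85.3 at 60 min against 18.4 at 0 min. Of the glycogen list 7 of 12 measured probe sets rose and 0 fell, with GSY2, the major glycogen synthase, at 14.4 against 2.68. The breakdown genes GPH1 (log2 1.42) and GDB1 (1.66) rose as well. In the list of genes activated by Msn2 and Msn4, transcription factors of the general stress response, 34 of 39 probe sets rose and 0 fell, with a median log2 change of 2.23. These lists share members, such as TPS1, TPS2 and PGM2, and so are not independent of each other.

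MSN2 and MSN4 themselves had log2 changes of 0.83 and 0.98, below the median of 2.23 of their target list. HSF1, the heat shock factor, had 3.32 at 60 min against 1.30 at 0 min, and YAP1, the factor of the oxidative stress response, 3.10 against 1.28. USV1 had 3.28 against a dim 0.509. NRG2, a repressor of glucose-repressed genes, had 1.51 at 0 min and a dim 0.353 at 60 min, a log2 change of -2.10. In the list of stress transcription factors 4 of 22 rose (18.2%, against 13.8% of all probe sets) and 1 fell, with a median of -0.14.

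In the HOG pathway, the osmosensing kinase cascade, 1 of 23 measured probe sets rose and 4 fell. The share that fell, 17.4%, was near that of all probe sets. MSB2, a mucin-like osmosensor, had 0.811 at 60 min against 2.88 at 0 min (log2 0.11 in the KIN28 culture). The kinase gene STE20 had 0.631 against 1.52. SSK22, a kinase kinase kinase, had a dim 0.514 against 2.15, and SMP1, a transcription factor that the kinase Hog1 phosphorylates, had a dim 0.323 against 1.49. MSN1, a transcription factor gene, rose to 1.75 at 60 min, against 0.658 at 0 min.

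Protein kinase A is the glucose-activated kinase that opposes the Msn2 and Msn4 programme. In the list of its genes and regulators 4 of 17 probe sets rose (23.5%, against 13.8% of all probe sets). In that list 1 fell, and the median log2 change was 0.60. The catalytic subunit genes TPK2 (4.73 against 3.25) and TPK3 (0.487 against 0.561, dim at both times) did not reach 2-fold. The antagonist kinase YAK1 had 9.51 against 2.67, the phosphodiesterase gene PDE1 14.9 against 4.57 and the glucose receptor gene GPR1 4.29 against 1.73. RAS1, an activator of the cyclase, fell (0.839 against 1.96). Among genes of the TOR kinase pathway, which couples growth to nutrients, 2 of 18 rose (11.1%, against 13.8% of all probe sets) and 1 fell. On its design probe set TOR1 had 1.22 at 60 min against a dim 0.418 at 0 min, its copy TOR2 had a log2 change of -0.58, and LST8, a subunit common to both TOR complexes, had 3.13 against 6.80.

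Of the Hsp70 and Hsp110 chaperone genes 2 of 19 rose (10.5%) and 4 fell, with a median log2 change of 0.09 that was -0.25 with no scaling. SSA4, an inducible Hsp70 gene, had 24.2 at 60 min against 1.45 at 0 min, and the nucleotide exchange factor gene SSE2 29.6 against 8.98. The constitutive SSA1 and SSA2 genes had 0.44 and -0.13. The probe set of SSB1 and SSB2, the Hsp70 genes whose products sit on ribosomes, had 27.7 against 65.4, and their partners ZUO1 (-1.07) and SSZ1 (-1.04) fell too. ECM10, a mitochondrial Hsp70 gene, had a dim 0.320 against 0.716. HSP26, HSP78, HSP42, HSP31 and CPR7 rose, with log2 changes of 3.58, 1.67, 1.04, 1.35 and 1.17, while HSP82 and HSC82, the Hsp90 genes, had 0.36 and 0.09. For the list of Hsp90, disaggregase and small heat shock genes the median was 0.51 in the POG1 culture and -0.06 in the KIN28 culture.

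In central carbon metabolism, several isoenzymes moved in opposite directions. CYC7, the cytochrome c isoform of hypoxic and stressed cells, had 15.1 at 60 min against 1.82 at 0 min, whereas the main isoform CYC1 had 1.08 against 10.2, log2 changes of 3.05 and -3.25. HXK1 had 47.7 against 20.01 and HXK2, the hexokinase of glucose-grown cells, 30.5 against 66.3. Of the citrate synthase genes, the mitochondrial form CIT1 had 17.8 against 24.9 and the peroxisomal form CIT2 15.3 against 4.17. ADH5 had 12.95 against 1.71 and the mitochondrial alcohol dehydrogenase gene ADH3 10.2 against 21.7. The low-affinity glucose transporter gene HXT1 had 22.5 against 6.31, while HXT2 and HXT4, which are repressed at high glucose, had 6.31 against 31.4 and 0.631 against 2.48. HXT3, HXT6 and HXT7 had log2 changes of 0.10, -0.18 and -0.20. These pairs were picked after their values were seen.

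**Figure D2:**
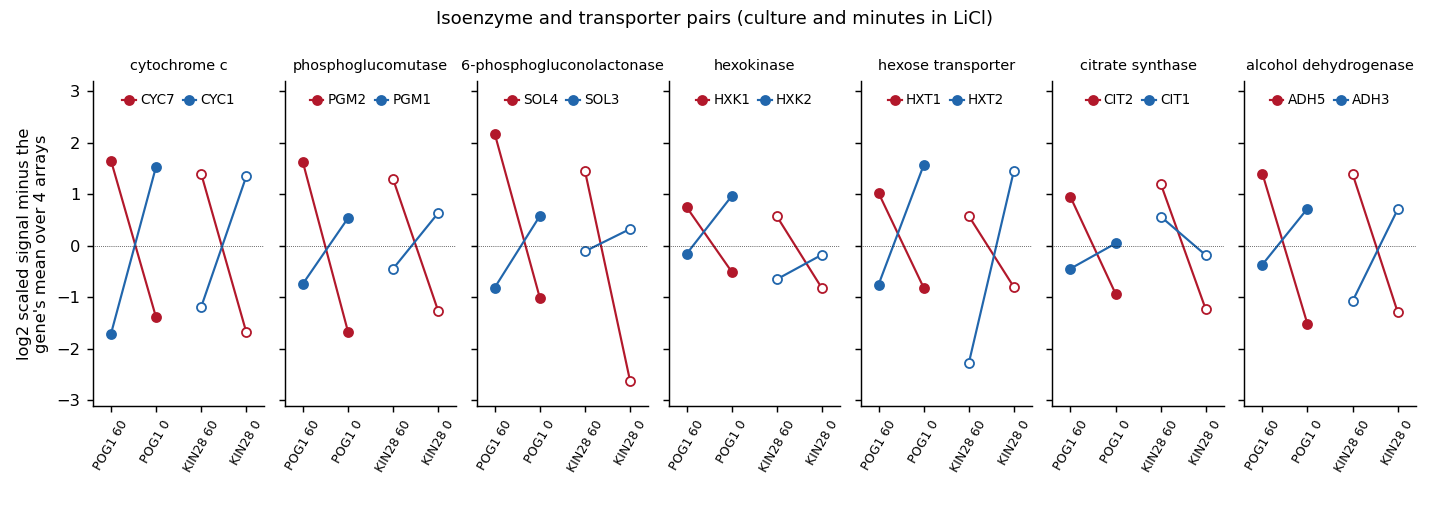
Each panel plots, for 2 related genes, the log2 scaled signal on the POG1 60 min, POG1 0 min, KIN28 60 min and KIN28 0 min arrays, minus the mean of that gene over the 4 arrays (filled points POG1 culture, open points KIN28 culture). In the POG1 culture the red member rose and the blue member fell at 60 min in every panel except citrate synthase, where the change of CIT1 (-0.49) did not reach 2-fold and ran the other way in the KIN28 culture.

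The pentose phosphate pathway, which makes NADPH and ribose phosphate, held the largest increase of any probe set measured in the POG1 culture. NQM1, a transaldolase-like gene, had 50.2 at 60 min against a dim 0.378 at 0 min, or at least 88.5-fold when the dim signal is raised to the negative-control level. TKL2, a minor transketolase gene, had 5.09 against 0.102, which is under the floor, on 1 of its 3 probe sets, all of which rose, and SOL4 had 45.3 against 4.98. The main transaldolase and transketolase genes TAL1 and TKL1 had log2 changes of 0.03 and -0.77 and were named after their values were seen. ZWF1, which encodes the first enzyme of the pathway, had 9.64 against 3.63, whereas GND1 (8.98 against 24.1), SOL3 (2.17 against 5.70) and RKI1, the ribose 5-phosphate isomerase (a dim 0.401 against 3.08), fell.

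Genes of the respiratory chain, ATP synthase, import and the mitochondrial ribosome were mostly below 0 on the log2 scale without reaching 2-fold, and those of the tricarboxylic acid cycle were not, with 12 of 22 above 0, 3 higher, 1 lower and a median of 0.03 that was -0.30 with no scaling. In the respiratory chain list 20 of 25 measured probe sets were below 0, 2 fell and 2 rose, and the median log2 change was -0.44, against 0.04 in the KIN28 culture. The 2 that fell were CYC1 and NDE1, the external NADH dehydrogenase (12.9 against 33.2), and CYB2, a lactate dehydrogenase gene, rose beside CYC7. For ATP synthase the median was -0.32, with ATP17 lower (2.95 against 7.09) and STF1, a stabiliser of the inhibited enzyme, higher (19.3 against 6.80). Protein import and carrier genes had 6 of 23 lower (26.1%, against 14.8% of all probe sets) and 1 higher. TIM23, the channel of the inner membrane, had 2.79 against 9.50, the small chaperones of the intermembrane space TIM9 and TIM10 had log2 changes of -1.19 and -1.46, and the ADP/ATP carrier gene PET9 and the phosphate carrier gene MIR1 had -1.04 and -1.25. Among mitochondrial ribosomal protein genes 12 of 68 fell (17.6%, near the 14.8% of all probe sets), led by RSM19 (0.644 against 3.55) and MRP21. The 1 that rose was MRP8, which carries the name although its product is not known to be a ribosomal protein. With no scaling the medians of these 4 lists were lower still, between -0.83 and -0.65. Of the 52 probe sets for the mitochondrial genome 34 were at or under the floor on both arrays. OLI1, a mitochondrially encoded ATP synthase subunit, had 7.78 at 60 min against 9.25 at 0 min, a log2 change of -0.25.

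Genes of cytoplasmic ribosome production fell on a broad front. Of 99 probe sets for large subunit ribosomal proteins 76 fell and 0 rose, and of 71 for the small subunit 45 fell and 0 rose, with median log2 changes of -1.27 and -1.30. RPL3 had 7.94 at 60 min against 55.2 at 0 min, and the shared probe set of RPL8A and RPL8B with the largest change had 8.38 against 71.6. Most ribosomal proteins of yeast are encoded by 2 genes, A and B, whose sequences are nearly alike, and the reading of a single copy is uncertain. For 31 such pairs each copy had its own probe set above the floor. Where a copy had several, the set with the highest POG1 0 min signal was used, a choice that can favour larger falls. On these sets the B copy had the lower log2 change in 19 pairs and the A copy in 12, with a median difference of -0.38 (B minus A). In 10 pairs the B copy had fallen at least 2-fold further, the largest gap being RPS26, where RPS26A had 160 at 60 min against 170 at 0 min and RPS26B 2.02 against 26.0. RPL22, RPL7, RPS28 and RPL9 followed, with differences of -2.66, -2.53, -2.33 and -2.25. The RPL7B set used had a log2 change of -4.06, and another RPL7B set had -3.02 with a dim signal at 60 min. In 4 pairs the A copy had fallen at least 2-fold further, RPL15, RPP2, RPS9 and RPS27. In the KIN28 culture the B copy had the lower change in 16 of the 31 pairs, with a median difference of -0.36.

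The factors that assemble ribosomes fell as far. Small subunit processome and snoRNP proteins had 32 of 40 probe sets lower and 0 higher (median log2 -1.49), and large subunit assembly factors 35 of 51 lower and 0 higher (median -1.53). NOP1, the methyltransferase of box C/D snoRNPs, had 3.41 at 60 min against 14.3 at 0 min, NOP58 had 5.05 against 22.9, and RRP5 1.34 against 7.47. ERB1 and NMD3, which act on the large subunit, had log2 changes of -2.34 and -2.53. Of the subunits of RNA polymerases I and III 16 of 33 fell and 1 rose. The largest polymerase I subunits, RPA190 and RPA135, had 1.48 against 9.16 and 1.503 against 8.89, while TFC3, a subunit of the transcription factor TFIIIC, had 3.13 against 1.26. RNA polymerase II did not move as a group, with 3 of 23 probe sets higher and 2 lower. Its largest subunit gene RPO21 rose (19.9 against 8.15) and the small subunit gene RPB11 fell (1.45 against 3.96). Of the translation factors 13 of 35 fell and 0 rose, led by CDC33, the cap-binding protein eIF4E, with 3.62 against 21.5. Of the tRNA synthetases 4 of 20 fell (20%, against 14.8% of all probe sets), among them WRS1 (3.72 against 18.2) and ALA1 (5.24 against 15.6).

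Probe sets for stable RNAs moved by class. All 9 ribosomal RNA probe sets past 2-fold were lower, of 13 measured. A 25S set had 1.13 at 60 min against 53.1 at 0 min, and an RDN37 set for the 35S precursor a dim 0.239 against 16.7. The 5S rRNA sets had log2 changes of -0.46, -0.92 and -2.31. The median log2 change of the 13 sets was -2.09, against -0.64 in the KIN28 culture, where 5 of 13 fell. A control probe set for 25S rRNA fell in both cultures, to a scaled 0.642 against 73.1 in the POG1 culture and 0.878 against 91.9 in the KIN28 culture. Another 25S control had 6.62 against 27.8 in the POG1 culture. In the KIN28 culture it had 30.9 against 53.9, which did not reach 2-fold. The RNA had been enriched for poly(A) tails before labelling, so that signals of RNAs without a tail depend on what that step left behind, and its yield on each array was not given. The part of carry-over in these changes was not tested. Of 55 measured snRNA and snoRNA probe sets 29 fell and 4 rose, with a median log2 change of -1.13. SNR44 had 1.23 against 10.7, SNR70 a dim 0.501 against 5.99 and SNR51 0.879 against 6.44, while the spliceosomal SNR6 had 1.66 against 3.93. TLC1, the RNA of telomerase, fell on both of its probe sets, with 0.678 against 3.52 and 0.560 against 3.62.

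Transfer RNA probe sets went the other way. Of 90 measured 46 rose and 10 fell, with a median log2 change of 1.14, against 1.17 in the KIN28 culture. The direction differed by amino acid. All 9 sets for tRNA-Glu and all 3 for tRNA-His rose, with medians of 1.66 and 2.61, as did 13 of 16 for tRNA-Gly and 9 of 12 for tRNA-Ser. For tRNA-Gln 6 of 9 fell and 0 rose, with a median of -1.35, whereas in the KIN28 culture 0 of these 9 fell and the median was 0.11. Sets for 1 amino acid share sequence between gene copies and are not independent. Full-length Ty elements, the retrotransposons of yeast, had 12 of 73 measured sets higher (16.4%, near the 13.8% of all probe sets) and 2 lower. Their median was 0.62, and Ty1 and Ty2 had medians of 0.61 and 0.63. Of 331 long terminal repeat sets 52 rose (15.7%) and 35 fell (10.6%), against 13.8% and 14.8% of all probe sets, and their median was 0.41. Open reading frames known from SAGE tags had 99 of 715 higher (13.8%) and 106 lower (14.8%), the same shares as all probe sets.

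**Figure D3:**
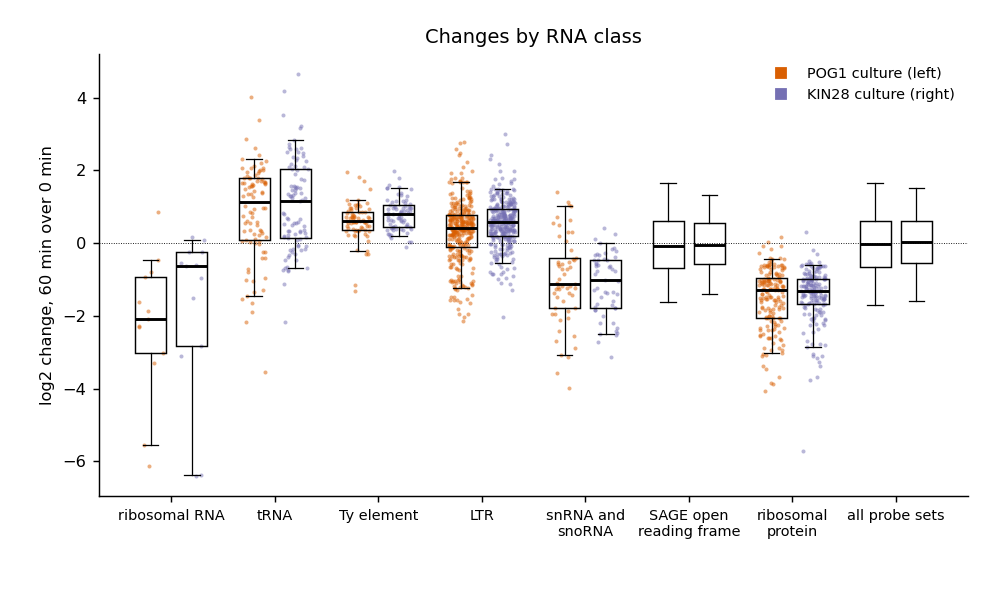
Boxes give the median and quartiles of the log2 change (60 min over 0 min) of measured probe sets of each class, whiskers the 5th and 95th percentiles, and points single probe sets of the smaller classes, with the POG1 culture on the left and the KIN28 culture on the right. In the POG1 culture the medians were -2.09 for ribosomal RNA, 1.14 for tRNA, 0.62 for Ty elements, 0.41 for long terminal repeats (LTR) and -1.13 for snRNA and snoRNA.

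Nucleotide synthesis fell and amino acid synthesis was divided. Purine genes had 19 of 30 probe sets lower and 1 higher, and the salvage gene HPT1 had 0.840 at 60 min against 9.64 at 0 min. GUA1, GMP synthase, had 8.66 against 31.0. The member that rose was PHO2, a transcription factor of both purine and phosphate genes (0.988 against a dim 0.365). Pyrimidine genes had 7 of 15 lower, led by FUR1 (2.12 against 14.7) and URA7 (2.31 against 12.98), and 1 higher, URA10 (1.17 against a dim 0.399). Arginine genes had 9 of 15 higher, with ARG7 at 22.7 against 1.69. The arginine breakdown gene CAR2 fell (3.78 against 12.3). The lysine genes LYS1, LYS2 and LYS20 had log2 changes of 3.25, 1.38 and 2.03, and LYS4 fell by 1.31. For S-adenosylmethionine, the methyl donor made from methionine, the shared set of SAM1 and SAM2 had 5.90 against 55.4, and SAH1, which clears the by-product of methylation, had 2.91 against 12.8. STR2, which moves sulfur towards methionine, rose (10.3 against 1.85), as did HOM3, which opens threonine and methionine synthesis (14.4 against 3.39). Of 23 amino acid permease probe sets, 21 were measured, 4 rose (19.0%) and 2 fell (9.5%), against 13.8% and 14.8% of all probe sets. These included BAP2 (17.8 against 8.06) and LYP1 (2.14 against 4.50).

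Ergosterol and phospholipid genes fell more often than all probe sets, at 30.0% and 30.3% against 14.8%, and sphingolipid genes did not. Ergosterol genes fell on 9 of 30 measured probe sets and rose on none (0), and their median was -0.74. ERG3, ERG4 and ERG11, the azole target, had 5.65 at 60 min against 32.3 at 0 min, 5.88 against 24.1 and 12.1 against 30.8. Among genes of phospholipid, inositol and fatty acid synthesis 10 of 33 fell and 1 rose, with a median of -0.69, against -0.01 in the KIN28 culture. The fatty acid synthase genes FAS1 and FAS2 had 5.34 against 15.4 and 6.50 against 24.1. ACC1, acetyl-CoA carboxylase, had 9.78 against 30.0, and the elongase gene ELO2 2.49 against 8.56. ITR1, an inositol transporter, had 3.92 against 11.9. INO2, which activates this set of genes, was dim at 60 min (0.265 against 0.791), and PSD1, the mitochondrial phosphatidylserine decarboxylase, rose (2.25 against 0.996). Of the sphingolipid list 3 of 22 fell (13.6%) and 2 rose. SUR2, TSC10 and AUR1 fell, by 1.71, 1.63 and 1.28 on the log2 scale, and the ceramidase gene YDC1 (1.13) and the kinase gene LCB5 (1.26) rose. The same probe sets of FAS1, FAS2, ACC1, ERG3, ERG4, SUR2 and TSC10 also had negative log2 changes in the KIN28 culture, of -1.12, -1.57, -0.98, -2.09, -0.95, -0.81 and -0.79.

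Cell wall protein genes split in nearly equal numbers, with 8 of 27 probe sets higher (29.6%) and 9 lower (33.3%). Of all probe sets 13.8% were higher and 14.8% lower. PIR3, a protein bound to glucan, had 30.8 at 60 min against 2.27 at 0 min, YGP1 had 82.4 against 7.69, SPI1 14.8 against 1.87 and CWP1 75.5 against 24.0. The members that fell included ECM33, on both probe sets (-1.5 and -1.97), UTR2, a chitin transglycosylase gene (3.79 against 12.8), and TIR1, TIR2 and TIR3, mannoproteins of cold and anaerobic growth (-1.26, -1.75 and -1.72). GAS1, the glucan-remodelling enzyme of the cell surface, had 23.9 against 63.5. In the KIN28 culture 9 of 27 rose and 1 fell, and TIR3 had a log2 change of 0.92.

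Among genes for metals and phosphate more probe sets fell than rose, as they did among all probe sets (14.8% and 13.8%). Iron and copper genes had 8 of 34 probe sets lower and 2 higher. FET3 and FTR1, the oxidase and permease of high-affinity iron uptake, had 6.73 against 18.0 and 1.501 against 4.95. The copper transporter gene CTR1 had 1.63 against 6.67 and the surface reductase gene FRE1 1.04 against 4.81. The 2 that rose were CCC2, which loads copper into the oxidase (1.98 against 0.735), and a further surface reductase gene, FRE2 (2.04 against a dim 0.450). The zinc transporter gene ZRT1 fell (4.02 against 9.17). In the phosphate list 7 of 20 measured probe sets fell (35%) and 4 rose (20%), with a median log2 change of -0.75, against 0.03 in the KIN28 culture. PHO84, the high-affinity phosphate transporter, had 5.11 at 60 min against 21.0 at 0 min, and in the KIN28 culture its log2 change was -0.13. The low-affinity transporter gene PHO90 had 2.35 against 7.98. VTC2 and VTC3, of the polyphosphate polymerase, had log2 changes of -1.36 and -1.61, and the secreted phosphatases PHO11 and PHO12, on a shared set, -2.0. The vacuolar phosphatase gene PHO8 rose (4.57 against 2.05).

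Genes of protein breakdown differed by list. In the list of vacuolar proteases and autophagy genes 12 of 27 rose (44.4%, against 13.8% of all probe sets) and 1 fell, with a median log2 change of 0.86. PEP4, the protease that activates the others, had 60.7 at 60 min against 24.9 at 0 min, and PRB1 had 7.28 against 3.16. APE1 and its receptor ATG19, cargo of a selective autophagy route, had 9.16 against 0.775 and 6.74 against 2.00. ATG1, the kinase that starts autophagy, had 1.71 against a dim 0.221, and ATG5 fell (1.83 against 3.78). Proteasome genes had 9 of 41 higher and 0 lower and 37 of 41 above 0, with a median of 0.61, and ECM29, a proteasome-associated protein, had 3.34 against 1.09 on the list's probe set. With no scaling the median of the proteasome list was 0.28. Of the list of ubiquitin, its activating and conjugating enzymes and other ligases 6 of 38 rose (15.8%, near the share of all probe sets) and 3 fell. The polyubiquitin gene UBI4 had 48.4 against 7.78, and the probe sets shared by RPL40A and RPL40B, which encode ubiquitin fused to a ribosomal protein, had -0.45, -1.06 and -2.0. Of RSP5 and its adaptors 4 of 20 rose (20%, against 13.8% of all probe sets) and 0 fell. ECM21, an arrestin-like adaptor, had 3.30 against 1.09, and SSH4, ROG3 and ART10 had 1.15, 0.981 and 0.854 at 60 min, each against a dim signal at 0 min (0.245, 0.281 and 0.275). With the dim signals at the negative-control level, SSH4 changed at least 2.03-fold. At that level ROG3 and ART10 changed at least 1.73-fold and 1.51-fold, so a 2-fold rise is not assured for them. The other HECT ligase genes HUL4 (3.17 against a dim 0.504) and HUL5 (5.38 against 1.95) also rose. Of the deubiquitination list 3 of 24 rose (12.5%) and 4 fell (16.7%), near the shares of all probe sets. RPN11, the deubiquitinase in the proteasome lid, had 24.5 against 11.9.

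**Figure D4:**
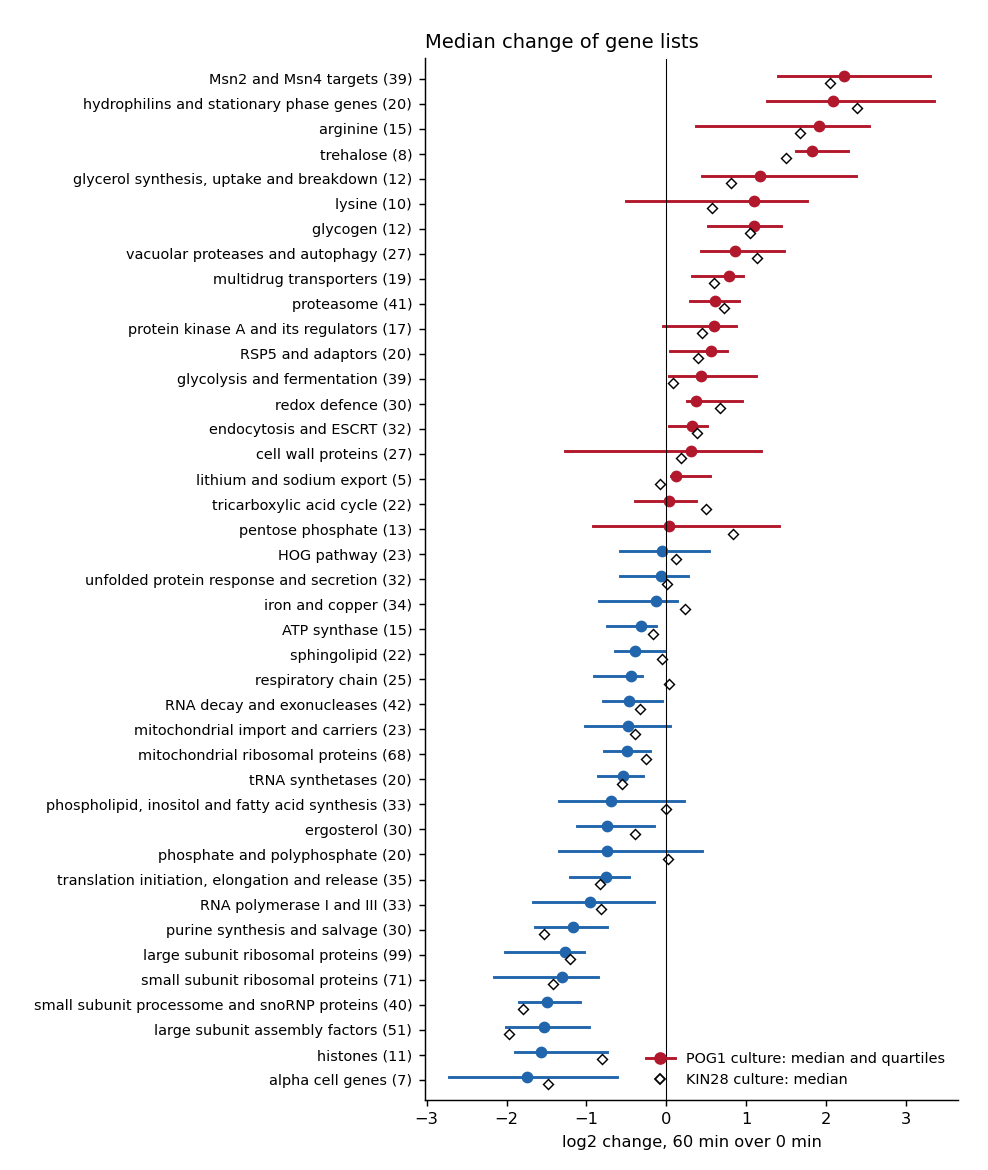
Filled circles give the median and lines the quartiles of the log2 change (60 min over 0 min) in the POG1 culture for 41 gene lists, with the number of measured probe sets in brackets, and open diamonds the median in the KIN28 culture. The lists run from Msn2 and Msn4 targets (2.23) at the top to alpha cell genes (-1.75) at the bottom, and the diamonds of the phosphate and of the phospholipid, inositol and fatty acid lists lie near 0 while the circles lie at -0.75 and -0.69.

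Set beside the KIN28 culture, which shares no array with it, the POG1 culture had a similar pattern of changes. Over the 6318 probe sets that exceeded the floor on each of the 4 arrays, the log2 changes had a Pearson r of 0.73 and a Spearman rho of 0.67, across probe sets that are not independent and with the same times and medium family in both cultures. Of the 1106 probe sets that rose in the POG1 culture 510 (46.1%) also rose in the KIN28 culture, which is 48.9% of the 1044 that rose there (13.0% of 8013 measured). Of the 1189 that fell 569 (47.9%) also fell in the KIN28 culture, or 56.1% of the 1015 lower there (12.7%). In either direction 2295 probe sets (28.5%) passed 2-fold in the POG1 culture and 2059 (25.7%) in the KIN28 culture. Opposite calls were made for 65 probe sets.

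Stress genes had the higher change in either culture. Of 39 probe sets for Msn2 and Msn4 targets 20 had the higher log2 change in the POG1 culture and 19 in the KIN28 culture, and of 20 for hydrophilins and stationary phase genes 6 had it in the POG1 culture and 14 in the KIN28 culture. The 0 min signal was lower in the POG1 culture for 18 of the 39 Msn2 and Msn4 probe sets. For hydrophilins and stationary phase genes it was lower there for 5 of 20. Over these lists, the 0 min signals were thus not mostly lower in the POG1 culture. Single genes, picked after their values were seen, differed in their 0 min signals. SSA4 had 24.2 at 60 min and 1.45 at 0 min in the POG1 culture, while the KIN28 culture had 28.9 and 6.39. In the same order of cultures and times, YGP1 had 82.4 and 7.69 against 83.0 and 22.6, SPI1 14.8 and 1.87 against 15.1 and 5.55, and DDR48 33.0 and 3.63 against 32.7 and 7.65. TPS2 (47.3 and 4.76 against 37.3 and 8.20) and GRE2 (15.9 and 1.41 against 12.6 and 3.34) had lower 0 min signals in the POG1 culture too. In the other direction, PIR3 had 30.8 and 2.27 against 32.5 and 1.03, SOL4 45.3 and 4.98 against 27.5 and 1.63, and HBT1 30.3 and a dim 0.458 against 32.9 and 0.074. APE1 differed at both times, with 9.16 and 0.775 in the POG1 culture against 22.2 and 5.19. ARG1, of arginine synthesis, had 8.64 at 60 min and a dim 0.516 at 0 min in the POG1 culture, while the KIN28 culture had 23.6 and 0.527.

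Among genes above the floor on all 4 arrays, the largest gaps in log2 change where the POG1 culture was higher included those of OAF3 (2.42 against -0.52, with a dim 0.261 at 0 min in the POG1 culture), VRL1 (1.66 against -1.25, with a dim 0.466) and 1 of the probe sets each of DBP2 and NOG2, RNA helicase and GTPase genes of large subunit assembly, which fell by 3.74 and 2.80 in the KIN28 culture and changed by -0.29 and -0.31 in the POG1 culture. The other NOG2 probe set fell in both (-2.83 against -3.87), so the readings of that gene disagree in size. In the other direction, GPG1 had 1.32 at 60 min and 1.18 at 0 min in the POG1 culture, while the KIN28 culture had 4.24 and 0.377. FCP1, the phosphatase that removes phosphates from the RNA polymerase II tail, had a dim 0.218 and 1.83 in the POG1 culture, and the KIN28 culture had 1.19 and 1.75. The actin nucleation gene ARC35 had 2.38 and 5.58 in the POG1 culture, against 9.63 and 4.89. CDC33 fell by 2.57 in the POG1 culture and by 0.86 in the KIN28 culture. None of these differences has a replicate behind it.

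**Figure D5:**
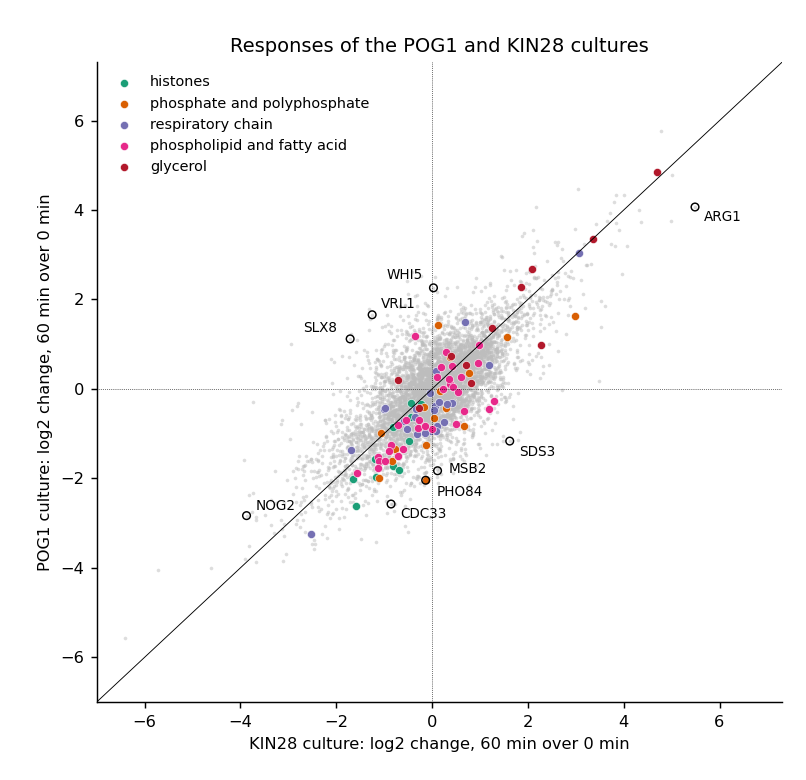
Each grey point is 1 of the 6318 probe sets that exceeded the floor on each of the 4 arrays, with its log2 change (60 min over 0 min) in the POG1 culture on the vertical axis and in the KIN28 culture on the horizontal axis, and coloured points mark members of 5 gene lists. Points lie along the line of equality (Pearson r 0.73), with WHI5, VRL1 and SLX8 above it and SDS3, MSB2 and CDC33 below it.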

How the data were processed

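RNA with poly(A) tails from 4 cultures was hybridized to Affymetrix yeast arrays, 15 µg of cRNA at 45 °C for 18 h, per the labels' protocols. The authors deposited 1 intensity per probe set and array, and a normalized ratio made from it, per the file headers; the summary software is not given in the sources used here. A series-wide table held the same intensities. From the deposited intensities, signals were divided by the array median over 9275 probe sets without controls, floored at the 20th percentile, and compared as log2 of 60 min over 0 min (Python 3.11.15, numpy 2.4.6, pandas 2.3.3). In simulated data the script recovered planted changes well past 2-fold, in probe sets above the array median and with noise below the probe-set spread of 0.42. Recovery of changes near 2-fold or in dim probe sets was not simulated. With 1 array per group no test was made and arrays limit the precision. Of the probe sets, 6504 had 1 gene in the platform annotation, 328 several and 2443 none, and 5798 were matched to RefSeq through the open reading frame they were designed for.

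The members and gene lists were chosen with earlier results of these data known. Named genes were POG1, KIN28 and RSP5, members of lists of 12 or fewer, the 6 largest changes each way, opposite movers and the first 3 genes of longer lists, the 40 largest changes each way above the floor, up to 10 each way as bounds, 20 each way among shared probe sets, and genes opposite or 10 each way most different between cultures, of which the text gives a subset. Alternatives covered scaling, floor, detection, column, probe-set class and threshold.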

Additional observations from a re-analysis of the deposited data

Results flagged for a closer look

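In 3 genes above the floor on all 4 arrays, the POG1 culture changed at least 2-fold in one direction and the KIN28 culture at least 2-fold in the other. With 1 array for each culture and time the differences were not tested. VRL1 had a log2 change of 1.66 in the POG1 culture and -1.25 in the KIN28 culture. SLX8, which encodes a subunit of a SUMO-targeted ubiquitin ligase, had 1.12 in the POG1 culture and -1.71 in the KIN28 culture. SDS3, a subunit of the Rpd3 histone deacetylase complex, had -1.17 in the POG1 culture and 1.62 in the KIN28 culture. The signals of all 3 were low. VRL1 had 1.47 at 60 min and a dim 0.466 at 0 min in the POG1 culture. SLX8 had 1.19 at 60 min and a dim 0.548 at 0 min in the POG1 culture, and SDS3 a dim 0.311 at 60 min and 0.698 at 0 min. With its dim signal at the negative-control level, SDS3 changed 1.31-fold in the POG1 culture, which is under 2-fold. In the KIN28 culture SDS3 had 0.666 at 60 min and 0.217 at 0 min. That 0 min signal was near the floor and under the negative-control level of its array, 0.455.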

How the results depend on the processing

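No paired analysis was possible because each culture and time had 1 array, and for the same reason no array could be left out in turn. The count of probe sets higher at 60 min was 663 with no scaling, 667 with hybridization control scaling, 1679 with no floor and no detection filter, 606 with a floor at the 40th percentile and 677 with a floor at the negative controls. It was 2079 at 1.5-fold and 457 at 3-fold. The count lower at 60 min was 1946 with no scaling, 1933 with hybridization control scaling, 1851 with no floor, 2174 at 1.5-fold and 493 at 3-fold. Under the other alternatives run, both counts stayed within 1.5 times their reported values. The Pearson r between the cultures lay between 0.73 and 0.81. No list median beyond 0.42 in size, and no gene given in the text past 2-fold, changed sign under any alternative run. No scaling and hybridization control scaling each shift all changes by a constant smaller than 0.42, so they could not reverse any of these. Genes at or under a raised floor on both arrays were left out of that setting. The wider set of named genes was not covered by that check of signs. In it, SER3 went from a log2 change of 1.40 to -0.03 with the floor at the negative controls. The shared set of VTH1, VTH2 and YNR065C went from 1.23 to -0.01. Hybridization control scaling left the median of all probe sets at -0.34, and with it or no scaling the small positive medians of lists such as cell wall proteins (-0.02 with each) turned negative. Dim signals limit the size of single changes, and the raised floors moved 38 and 33 named readings by more than the probe-set spread.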
